A study of Bos taurus with 16 samples.

Results

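The genes described here were the BCL2 family of apoptosis regulators in pools of bovine blastocysts, 10 genes taken by their symbol from 22138 gene names in the deposited count tables. They were 4 genes whose proteins oppose cell death (BCL2, BCL2L1, MCL1 and BCL2A1), 2 whose proteins form the pore in the mitochondrial outer membrane (BAX and BAK1) and 4 of the BH3-only class (BAD, BID, BBC3 and PMAIP1). All 10 symbols were found, at 11 loci, since BID was listed under 2 of them. The set was chosen by the measured counts of BCL2A1, whose reads lay in a single control pool, so the values of BCL2A1 are given as a description, with no test.

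The intrinsic pathway of apoptosis is decided at the mitochondrial outer membrane. BAX and BAK1 can oligomerize there and release cytochrome c, which allows the apoptosome to activate caspase-9 and then the executioner caspases. Anti-apoptotic members hold BAX, BAK1 and the BH3-only proteins in a groove on their surface, and BH3-only proteins, which are made or activated in response to damage or loss of growth factors, occupy that groove or act on BAX and BAK1 directly. Some blastomeres die in normal mammalian blastocysts, mostly in the inner cell mass, and transcripts of this family are often used as markers of embryo quality.

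The question of the study was whether methionine in the diet of the mother alters the RNA of her embryos. Holstein cows were fed from calving until flushing either a control diet or the same basal diet with rumen-protected methionine (methionine-rich), were superovulated and inseminated, and blastocysts were flushed from 4 cows per treatment, 8 cows in all. The blastocysts of a cow made up 2 pools of a single embryo to a few embryos each, named here by treatment, cow and pool (C1.1 to C4.2 and M5.1 to M8.2), and the tissue entry of the labels reads IVF embryos, whereas the methods describe embryos recovered from the cows. Pools C4.1, C4.2 and M8.2 each held a single blastocyst. Per the study, most methionine-rich pools held more blastocysts than any control pool. The quality number of the amplified RNA was lower in M5.1, M5.2, M6.1, M6.2 and M7.1 than in any control pool with a value. Diet therefore cannot be told apart from pool size and RNA quality in the comparisons below. The comparison was made without pool C3.2, which leaves 7 control and 8 methionine-rich pools.

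The counts summed to between 5624126 and 7826542 per pool in these 15 pools and to 1745048 in C3.2. Values are given as reads and as CPM, counts per 1000000 counted reads of the pool. A floor of 3 reads in a pool corresponded to between 0.383 and 0.533 CPM in the 15 pools. Trophectoderm markers, among them KRT18 and GATA2, were found in each of the 15 pools, with summed CPM between 3269 and 10073, and markers of the inner cell mass and hypoblast summed to between 134 and 405 CPM. CDX2 of the trophectoderm was at 0 in 3 of the 15 pools, POU5F1 of the inner cell mass in 0, and SOX17, a hypoblast transcription factor, in all of them. Markers of cumulus, oviduct and uterine epithelium summed to 26.3 CPM in M6.1, nearly all of it PGR, the progesterone receptor, with 183 reads, and to at most 8.51 CPM in the other pools. M6.1 also had the 405 CPM of inner cell mass and hypoblast markers, of which 238 CPM was the single gene PDGFRA. Pool C2.1 stood apart from the rest by its leukocyte transcripts, as described with BCL2A1 below, and results that rest on it are given with and without it. Since RNA was amplified before sequencing and no transcript lengths were used here, levels are compared between pools for a given gene and not between genes. In such bulk pools, fewer cells of a type and less RNA per cell cannot be told apart.

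Among the anti-apoptotic members, MCL1 was the steadiest from pool to pool. MCL1 is a short-lived protein whose loss is lethal to the early mouse embryo. The MCL1 locus, XLOC_014965, was measured in CPM with C1.1 at 347, C1.2 at 391, C2.1 at 305, C2.2 at 421, C3.1 at 315, C4.1 at 310 and C4.2 at 732. On the methionine-rich diet the CPM put M5.1 at 499, M5.2 at 502, M6.1 at 403, M6.2 at 351, M7.1 at 291, M7.2 at 399, M8.1 at 449 and M8.2 at 500. Pool C4.2 was the highest of all, the other 14 pools lay between 291 and 502 CPM, and the treatments overlapped. The highest pool exceeded the lowest by 2.52-fold. Between 1718 and 5694 reads per pool stood behind these values. In C3.2, where few reads fell on exons, MCL1 still had 586 reads or 336 CPM, within the range of the other pools.

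BCL2L1 encodes BCL-XL, the anti-apoptotic partner of BAX and BAK1 at the mitochondrion, and its counts were low and uneven. The BCL2L1 locus, XLOC_003849, had few reads, with C1.1 at 17 (2.24 CPM), C1.2 at 153 (22.9 CPM), C2.1 at 2, C2.2 at 17, C3.1 at 13, C4.1 at 4 and C4.2 at 38. On the methionine-rich diet the reads put M5.1 at 20, M5.2 at 5, M6.1 at 24, M6.2 at 14, M7.1 at 1, M7.2 at 73, M8.1 at 72 and M8.2 at 13. In every cow with both pools in the comparison, the sister pools differed from each other by more CPM than the medians of the treatments did. These medians were 2.24 CPM in control and 2.56 CPM in methionine-rich. C1.2 was the highest pool and M7.1 the lowest, 180-fold apart in CPM. A long noncoding RNA gene overlaps BCL2L1 in the RefSeq annotation of the assembly ARS-UCD2.0, and whether the counting used strand is not given in the sources used here, so part of these few reads may belong to either.

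Reads of BCL2, the founding member of the family, were found in a single pool. The BCL2 locus, XLOC_012445, had 89 reads in C2.1, which is 15.8 CPM (95% Clopper-Pearson interval 12.7 to 19.5, counting error only), and 0 in each of the other 15 pools, C3.2 included. The level in C2.1 was at least 31.3-fold above the floor of any other pool of the comparison. BCL2 therefore passed the filter on low values, a CPM summed over pools of at least 15, through that pool alone.

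BCL2A1, an NF-kB target known mainly from leukocytes, had its reads in the same pool. The BCL2A1 locus, XLOC_010710, had 2072 reads in C2.1, or 368 CPM (95% Clopper-Pearson interval 353 to 385). Of the other control pools C1.1, C2.2 and C3.1 had 1 read each, and C1.2, C4.1 and C4.2 had 3 each, all at or under the floor. In the methionine-rich pools there were 14 reads in M8.2 (1.89 CPM), 3 in M7.2, 1 in M6.1 and 0 in the other 5. C3.2 had 4 reads, or 2.29 CPM. C2.1 exceeded the next pool of the 15 by 195-fold, and 98.9% of the summed CPM came from it.

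**Figure D1:**
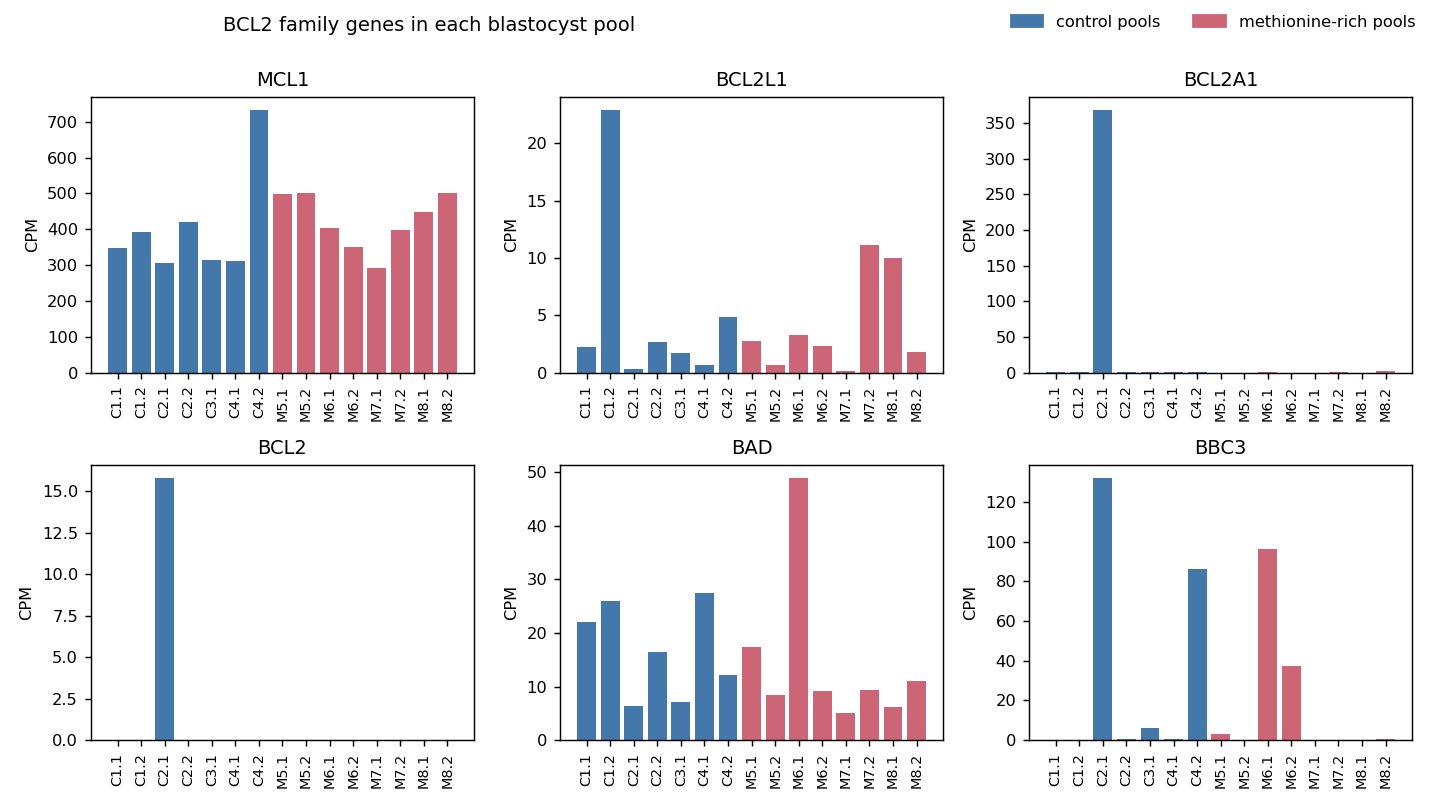
CPM (counts per 1000000 counted reads, linear axis from 0) of 6 BCL2 family genes in each of the 7 control and 8 methionine-rich pools, 1 bar per pool. MCL1 was found in all pools between 291 and 732 CPM, BCL2A1 and BCL2 stood out in C2.1 alone, and BBC3 was high in 4 pools of both treatments.

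The pore-forming members were almost without reads. The BAX locus, XLOC_007043, had 0 reads in all 16 pools, out of 106463481 counted reads, which allows a level of up to 0.0282 CPM over all pools (3 counts, counting error only). It belonged to the 4863 of 22358 loci, or 21.8%, without a read in any pool. BAX overlaps the gene TULP2 in RefSeq's annotation of ARS-UCD2.0, so its count of 0 is uncertain, and the part of this overlap was not tested. The BAK1 locus, XLOC_011801, had 16 reads in M5.1, or 2.2 CPM (95% Clopper-Pearson interval 1.26 to 3.58), and 0 in the other 15 pools. Neither gene was measured well enough to compare the treatments.

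BAD, a BH3-only protein held inactive by phosphorylation while growth factors are present, was found in all 15 pools. The BAD locus, XLOC_014661, was measured in CPM with C1.1 at 22.0, C1.2 at 25.9, C2.1 at 6.4, C2.2 at 16.4, C3.1 at 7.14, C4.1 at 27.4 and C4.2 at 12.2. On the methionine-rich diet the CPM put M5.1 at 17.4, M5.2 at 8.44, M6.1 at 48.9, M6.2 at 9.09, M7.1 at 5.11, M7.2 at 9.27, M8.1 at 6.26 and M8.2 at 11.1. M6.1 was the highest pool with 359 reads and its sister pool M6.2 had 54. M6.1 was also the pool with the PGR reads and the highest sum of inner cell mass and hypoblast markers of the 15, whose part in the BAD and BBC3 values of M6.1 was not tested. The median was 16.4 CPM in control and 9.18 CPM in methionine-rich, and the ranges overlapped. GPR137 overlaps BAD in RefSeq's annotation, so the assignment of reads to BAD is uncertain to that extent.

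BBC3 encodes PUMA, a BH3-only protein induced by DNA damage, and its reads were concentrated in 4 pools. The BBC3 locus, XLOC_007609, had 740 reads (132 CPM) in C2.1, 669 (86.0 CPM) in C4.2, 707 (96.3 CPM) in M6.1 and 223 (37.5 CPM) in M6.2. Of the other control pools, C3.1 had 47 reads or 6.33 CPM, C4.1 had 5 reads, C2.2 had 3, and C1.1 and C1.2 had 0. Of the other methionine-rich pools, M5.1 had 21 reads or 2.89 CPM, M8.2 had 6, M7.1 had 2, and M5.2, M7.2 and M8.1 had 0. High pools were found in both treatments, and in cows 2 and 4 the sister pool was at or under 0.824 CPM. Cow 6 was the cow with high values in both of its pools.

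The damage-induced genes CDKN1A and PERP did not share this order of pools. CDKN1A, the cell cycle inhibitor p21, was named after its values were seen. It had 103 CPM in C2.1 and 60.1 CPM in M6.1, but 9.38 CPM in C4.2 and 2.19 CPM in M6.2, where BBC3 was high, and 53.5 CPM in C2.2, where BBC3 was at 0.464 CPM. PERP, a membrane protein of cell junctions, was highest in C4.2 with 665 CPM, and its other 14 pools lay between 109 and 337 CPM. TP63, a transcription factor of epithelia, had 427 reads in M8.2, and its other pools reached at most 18.

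PMAIP1 and BID, both BH3-only, lay near the limit of detection. The PMAIP1 locus (NOXA, which binds MCL1), XLOC_012283, had 6 reads in C4.2, 1 in C3.1, 1 in M6.2 and 0 elsewhere. BID, which caspase-8 cleaves to link death receptors to the mitochondrion, was split over loci XLOC_017957 and XLOC_017959. The first had at most 7 reads in a control pool (C2.2) and at most 10 in a methionine-rich pool (M7.1), and the second at most 2 and 7. Reads of the gene could have been divided between these loci in the counting. Together with BAX and BAK1, these were the 4 members that did not reach the summed CPM of 15 and were not tested.

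Of the 6 members that passed the filter, BCL2A1 was not judged by the test, and none of the other 5 was called as different between the treatments. The test was edgeR's exact test on the 15 pools over 10519 loci, and a locus was called when the Benjamini-Hochberg FDR was under 0.1 and the groups were 2-fold or more apart. Over all loci 110 were called, or 1.05%, of which 0.77% of the loci were higher under the control treatment and 0.276% under the methionine-rich treatment. Of the 5 members 0 were called and 1, BCL2, had an unadjusted p under 0.05, against 8.54% of all loci. Since BCL2 entered the test only through the pool where it was high, nothing is read from its p. The edgeR quasi-likelihood test, DESeq2, limma's voom with a random effect for the cow and the tests on cow sums also called 0 of them. DESeq2 on cow sums gave no FDR for BCL2, so its 0 covers the other members only. Over all loci the quasi-likelihood test and voom called 0%, the former with 8.64% at an unadjusted p under 0.05, DESeq2 called 0.599%, and on cow sums the exact test called 0.742% and DESeq2 0.865%. No member was called either with RLE size factors (1.11% of all loci called), pool totals (0.941%), loci with at least 1 count (0.316%), C3.2 added (3.3%) and C2.1 left out (0.628%). The count was 0 too with each of cows 1 to 8 left out, where 1.37%, 0.762%, 1.17%, 1.42%, 0.704%, 0.713%, 0.608% and 0.475% of all loci were called. When run on pools, the exact test, the quasi-likelihood test and DESeq2 treat both pools of a cow as if they were separate animals.

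For MCL1 control pools averaged 403 ± 152 CPM (SD, n = 7 pools) and methionine-rich pools 424 ± 77.6 CPM (SD, n = 8 pools). The exact test gave a log2 fold change, methionine-rich over control, of 0.08 (edgeR, FDR = 1). With the pools of each cow summed, DESeq2 estimated 0.10 ± 0.25 (SE, 4 against 4 cows), with a 95% interval from -0.39 to 0.58, so a 2-fold difference in either direction lay outside the interval. Means over the pools of a cow ranged from 315 to 521 CPM in control and from 345 to 500 CPM in methionine-rich, and without cow 2 or without cow 8 the log2 fold change was -0.01 and -0.03.

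For BAD control pools averaged 16.8 ± 8.61 CPM (SD, n = 7 pools) and methionine-rich pools 14.4 ± 14.4 CPM (SD, n = 8 pools), and the exact test gave a log2 fold change of -0.27 (edgeR, FDR = 1). DESeq2 on cow sums gave -0.07 ± 0.63 (SE, 4 against 4 cows), with a 95% interval from -1.29 to 1.16. Without cow 6, to which the highest pool belongs, the log2 fold change was -0.88, and without cow 1 it was 0.05, with no call in either fit.

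For BCL2L1 control pools averaged 5.07 ± 8.02 CPM (SD, n = 7 pools) and methionine-rich pools 4.00 ± 4.18 CPM (SD, n = 8 pools). The exact test gave a log2 fold change of -0.38 (edgeR, FDR = 1), and DESeq2 on cow sums gave -0.20 ± 0.94 (SE, 4 against 4 cows), with a 95% interval from -2.05 to 1.64. The sign rested on cow 1, without which the log2 fold change was 1.07, again with no call.

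For BBC3 control pools averaged 32.2 ± 54 CPM (SD, n = 7 pools) and methionine-rich pools 17.2 ± 34.5 CPM (SD, n = 8 pools). The exact test gave a log2 fold change of -0.98 (edgeR, FDR = 1). The interval from DESeq2 on cow sums was the widest of these 4 genes, from -4.80 to 3.53 around -0.64 (SE 2.12, 4 against 4 cows). Single animals and pools decided the value, which was 0.23 without pool C2.1, -0.07 without cow 2 and -5.83 without cow 6 (FDR = 0.128 by the exact test without cow 6, and from 0.963 to 1 under the other alternatives).

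For BCL2 the exact test of edgeR gave FDR = 0.316 and the quasi-likelihood test 0.331. The FDR ranged from 0.174 to 1 over the alternatives that gave one, which DESeq2 on cow sums did not. These values are not evidence about the diet, as BCL2 passed the filter through C2.1 alone, and its fitted fold changes, against a treatment at 0 in all pools, are no bound. Without C2.1 no BCL2 read remained. For BCL2A1 the mean was 52.9 ± 139 CPM in control and 0.31 ± 0.658 CPM in methionine-rich (SD, n = 7 and 8 pools). The log2 fold change of BCL2A1 was -7.39 with C2.1 and 0.19 without it.

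**Figure D2:**
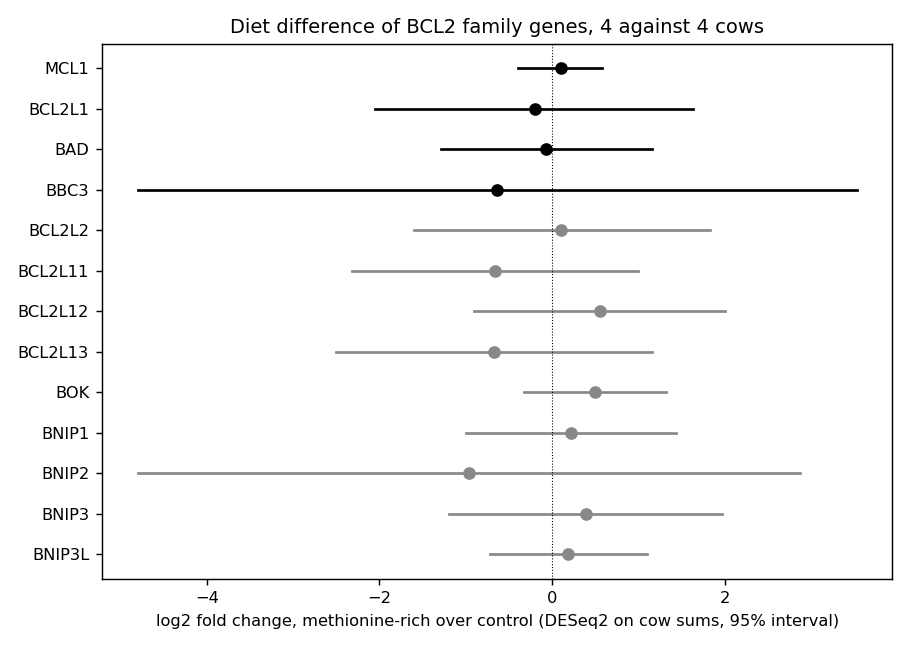
Log2 fold change, methionine-rich over control, of 4 of the members (black) and 9 other BCL2 family genes (grey) with 95% intervals, from DESeq2 on reads summed per cow, 4 against 4 cows. All drawn intervals include 0, and they widen from MCL1, -0.39 to 0.58, to BBC3, -4.80 to 3.53. Not drawn are BCL2A1, whose counts chose the set, and the genes without any read in one treatment, BCL2 and BCL2L15. The fitted intervals of BCL2 and BCL2L15 lie below 0. Nothing is read from them, as both genes passed the filter through control pools alone.

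The members differed widely in their spread between pools. The coefficient of variation of CPM over the 15 pools was 0.275 for MCL1, and 15.1% of the 536 loci with a mean within 2-fold of MCL1's varied less. For BAD the coefficient was 0.754, near the median of 0.737 of loci of like mean, and for BCL2L1 it was 1.34 against a median of 1.14. BBC3 varied more than 96.9% of the 2747 loci of like mean, with a coefficient of 1.8 against a median of 0.656. BCL2 and BCL2A1, with 3.87 and 3.83, varied more than 99.7% of loci of like mean, which restates that 1 pool held their reads. Of all loci tested 2.99%, or 315, had 90% or more of their summed CPM in 1 pool, and for 91 of those the pool was C2.1.

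Pools of the same cow were not uniformly closer than pools of other cows. On the scale log2(CPM + 1), the median difference between sister pools, over 7 cows, was 0.20 for MCL1, against 0.32 between pools of 2 cows on the same diet. It was 0.96 against 0.76 for BAD, 1.83 against 1.27 for BCL2L1 and 1.34 against 2.87 for BBC3. These are descriptions without a test, as the 42 pairs of different cows share pools. MCL1 and BAD were the 2 members with more than 3 reads in each of the 15 pools, as were 54.9% of all loci tested.

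**Figure D3:**
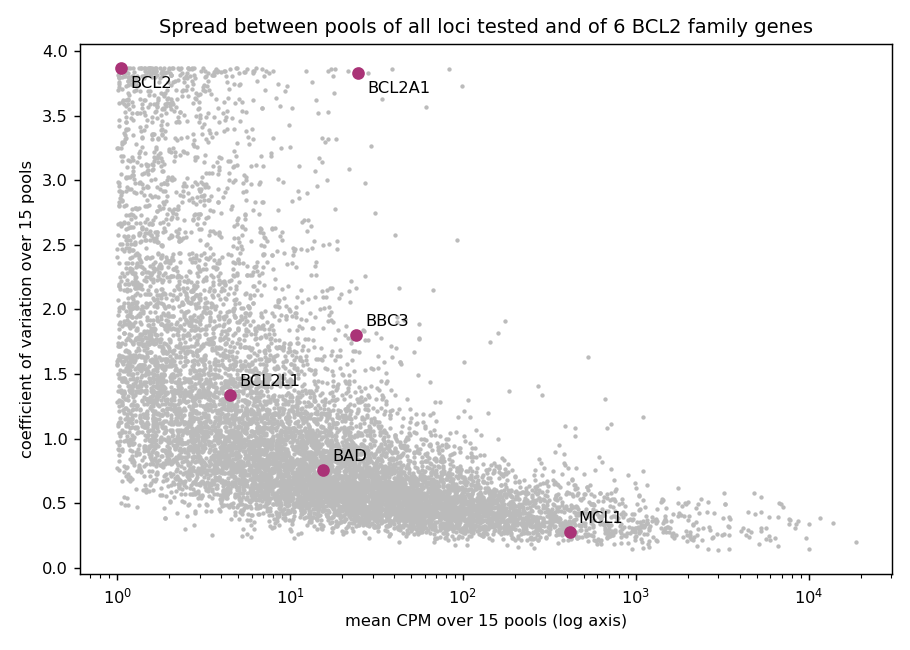
Coefficient of variation of CPM over the 15 pools against mean CPM (log axis) for the 10519 loci tested (grey) and 6 BCL2 family genes (purple). MCL1 lies in the lower part of loci of its level, with 15.1% of them lower, BBC3 above most of its neighbours, and BCL2 and BCL2A1 at the upper limit reached when a single pool holds the reads.

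Pool C2.1 carried transcripts of leukocytes beside BCL2A1 and BCL2. The 17 leukocyte marker loci summed to 2416 CPM in C2.1 and to between 2.04 and 37.2 CPM in the other 14 pools of the comparison. In C2.1, 13 of the 17 had more than 3 reads, and 9 had their highest CPM there, among them LAPTM5 with 6969 reads, NKG7 with 2698, TYROBP with 2122, LCP1 with 1031 and CD53 with 431. CD3E and CD2 of T cells and CD79A of B cells were at 0 in all 16 pools, and MS4A1 of B cells was at 0 in C2.1. PTPRC, the pan-leukocyte antigen CD45, had 18 reads in C2.1, 48 in M8.1 and 278 in C3.2. CD14, CSF1R and FCER1G of the same list also had their highest counts in other pools. CD14 had 5 reads in C2.1 against 84 in C2.2. CSF1R had 13 against 84 in M8.2, and FCER1G 5 against 8 in M8.2. Several markers of the list were already known to peak in C2.1, so the list is not an independent check. The part of leukocytes in the BCL2 and BBC3 reads of C2.1 was not tested. BCL2, BCL2A1 and BBC3 had their highest CPM in C2.1, the first of them past the filter through that pool alone and the second chosen for it. MCL1, BCL2L1 and BAD had 305, 0.356 and 6.4 CPM there, each the lowest of the 7 control pools of the comparison. The next lowest were 310 CPM for MCL1 and 0.659 CPM for BCL2L1, both in C4.1, and 7.14 CPM for BAD in C3.1. Their 95% Clopper-Pearson intervals overlapped those of C2.1, so this order lay within counting error. C3.2 was lower still for BCL2L1, at 0, and for BAD, at 0.573 CPM.

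**Figure D4:**
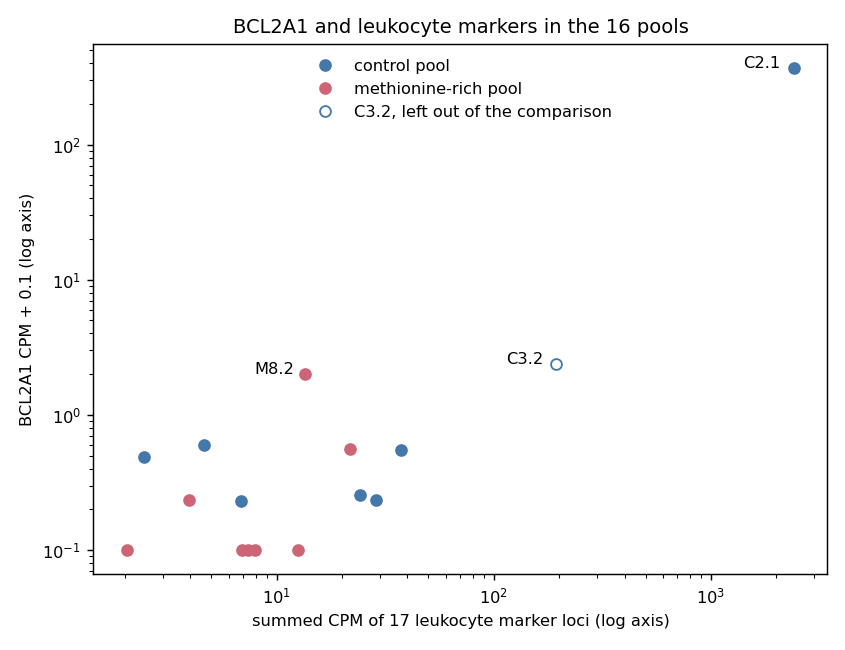
BCL2A1 CPM, with 0.1 added, against the summed CPM of 17 leukocyte marker loci in each of the 16 pools (both axes logarithmic, 1 point per pool, C3.2 open). C2.1 lies at 2416 and 368 CPM, away from all other pools, and C3.2, at 194 and 2.29 CPM, has the next highest marker sum.

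Among the loci most like BCL2A1 over the 15 pools were CRB1 and SHC2, with Pearson's r of 0.962 and 0.952 on log2 CPM. CRB1 is a cell polarity protein and SHC2 a signalling adaptor. Each had at most 2 reads in any other pool, against 101 and 670 in C2.1, and without C2.1 the correlations were 0.477 and 0.270, so the likeness rests on that pool. For MCL1 the most similar were HNRNPD (r = 0.873), a protein that binds AU-rich elements of short-lived mRNAs, MKI67IP (r = 0.843) and DEGS1 (r = 0.831). For BAD they included GFPT1 (r = 0.836) and DEDD (r = 0.794), and DEDD encodes a death effector domain protein. These values describe 15 pools from 8 cows, and the loci named were among the 3 highest of 10519 for each gene.

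The rest of the family and of the pathway was taken from 6 lists, with 52 of 68 loci tested. By the exact test 0 were called and 3, BCL2L15, BIRC5 and TP63, had an unadjusted p under 0.05 (5.77%, against 8.54% of all loci), and the quasi-likelihood test, DESeq2 and voom called 0 as well. The log2 fold change was above 0 for 26 of the 52, or 50.0%, against 46.5% of all loci, and its median was 0.00 against -0.05.

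Among other BCL2 family genes 14 of 15 were in the files and 10 were tested. BNIP3L, a BH3-like protein of mitophagy, had 39.0 ± 27.1 CPM in control and 41.3 ± 14.6 CPM in methionine-rich (SD, n = 7 and 8 pools, as for the genes that follow), with a log2 fold change of 0.08. BOK, a BAX-like protein that can permeabilize membranes by itself, had 24.7 ± 20 and 34.2 ± 18.2 CPM, was above the floor in all 15 pools and had a log2 fold change of 0.46 (FDR = 0.995 by edgeR's exact test). BOK had reads in every pool, whereas BAX had 0 and BAK1 had reads in M5.1 alone. The BAX count is uncertain, as said above, and levels are not compared between these genes. BCL2L11, which encodes BIM, had reads in all 15 pools, between 0.152 and 12.3 CPM, and was above the floor in 13 of them. BCL2L10, known from oocytes, and BIK were at 0 in the 16 pools.

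BCL2L15 had the lowest p of these lists, and is named after its values were seen. It passed the filter with a summed CPM of 15.7 that came from control pools alone, so nothing is read from its p. It had 18 reads in C1.2, 36 in C2.1 and 49 in C3.1, 0 in the other 4 control pools and 0 in all 8 methionine-rich pools, with p = 0.00196 and FDR = 0.133 by edgeR's exact test. Its FDR was 0.313 by the quasi-likelihood test, 0.492 by DESeq2, 0.993 by voom, and, on cow sums, 0.136 by the exact test and 0.135 by DESeq2. It was called with C3.2 added, and in the fit without cow 4.

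Genes of the apoptosome and the caspases were tested at 10 of 13 loci. CYCS, cytochrome c, had 192 ± 58.7 CPM in control and 188 ± 96.7 CPM in methionine-rich, with a log2 fold change of -0.06, and PARP1, a caspase substrate, had 2402 ± 1134 and 2198 ± 1213 CPM, with -0.08. CASP8, the initiator of the death receptor route, had 71 reads in C2.1, with no more than 8 elsewhere.

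Of the inhibitors of apoptosis and their antagonists 6 loci were in the files and all were tested. BIRC5, survivin, a member of the chromosomal passenger complex as well, had 250 ± 100 CPM in control and 419 ± 204 CPM in methionine-rich. Its log2 fold change was 0.78, with an unadjusted p of 0.0322 and FDR = 0.468 by edgeR's exact test. The highest values, 703 and 783 CPM, were in both pools of cow 8, and the other 6 methionine-rich pools lay between 256 and 366 CPM, within the control range of 164 to 442. BIRC6, a large ubiquitin-conjugating inhibitor, had 111 ± 50.5 and 147 ± 82 CPM, with a log2 fold change of 0.38.

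For death receptors and adaptors 5 of 10 loci were tested. FADD, the adaptor that recruits caspase-8, had 38.8 ± 14.8 CPM in control and 26.3 ± 21.7 CPM in methionine-rich, with a log2 fold change of -0.63 (FDR = 0.902 by the exact test), and TRAF2 had 6.38 ± 4.65 and 7.8 ± 8.98 CPM, with 0.27. In the list of damage response and growth arrest genes 8 of 10 loci were tested. PERP had 232 ± 196 and 235 ± 51.8 CPM, with a log2 fold change of 0.03, and GADD45A, a stress-induced growth arrest gene, had 166 ± 78.3 and 220 ± 81.1 CPM, with 0.42.

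Among mitochondrial partners of BCL2 proteins 13 of 15 loci were tested. TMBIM6, the BAX inhibitor 1 of the endoplasmic reticulum, had 1126 ± 325 CPM in control and 1005 ± 289 CPM in methionine-rich, with a log2 fold change of -0.15. HUWE1, a ubiquitin ligase of MCL1, had 338 ± 414 and 347 ± 208 CPM, with 0.02. HUWE1 varied more between pools than 98.1% of loci of like mean, from 76.2 to 1216 CPM, whereas MCL1 stayed within 2.52-fold. Both are RNA levels, and MCL1 protein, on which the ligase acts, was not measured.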

How the data were processed

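Read counts per gene were measured in 16 pools of blastocysts. Per the labels and the methods of the study, the authors amplified the RNA, aligned reads to bosTau7 with TopHat2 2.0.4, assembled gene models with Cufflinks 2.0.2 and counted reads with HTSeq, and they deposited whole-number counts, not normalized. Each table had 22552 rows and 22358 loci, and the 182 loci listed under several names entered once.

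Counts were tested with the exact test of edgeR 4.0.16 (R 4.3.3) with TMM scaling and tagwise dispersion, as in the study, on 15 pools and on loci with a summed CPM of at least 15. C3.2 was left out, as in the study, since most of its reads lay outside exons. Alternatives were edgeR's quasi-likelihood test, DESeq2 1.42.0, limma 3.58.1, sums per cow, other scalings and filters, and leaving out each cow. The scripts were tested on simulated data with independent pools and far less spread between pools than here. That checks the code and not the power or the false calls in these data. Totals of 5624126 to 7826542 reads per pool set the precision, and intervals and floors cover counting error only. No 2 pools agreed within sampling noise, with a chi-square per degree of freedom of at least 64.4.

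The members and the gene lists were chosen with earlier results of these data known. Named were the members, the 2 genes of highest mean CPM in each of the 6 apoptosis lists, any gene of those lists past the threshold, and for BCL2A1, MCL1 and BAD the 3 loci of highest Pearson correlation of log2 CPM, of which some are not reported here. BCL2L10, BCL2L11, BCL2L15, BIK, CASP8, CDKN1A and TP63 were named after their values were seen, as were the cell type markers printed. The listed genes BCL2L14, CASP10, XIAP, TNFRSF10D, TP73 and USP9X, and SRGN of the leukocyte markers, were not analysed here. All 10 members were matched by symbol to the RefSeq table of ARS-UCD2.0, which was used for overlapping genes only, since it is another assembly than the files use. The pools of a cow are not separate animals, and sire, sequencing lane, pool size and RNA quality were not used in the tests.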

Additional observations from a re-analysis of the deposited data

Results flagged for a closer look

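In 11 cases the highest pool of a treatment stood apart from the others by Dixon's test, among 18 groups of 7 or 8 pools examined, in all 9 members with reads. Chance marks about 1 in 20 groups, counts near 0 are marked easily, and nothing is read from the number of cases, since BCL2A1 was chosen for its level in C2.1 and a gene with reads in a single pool, as BCL2 or BAK1, is always marked. In control pools these were BCL2 in C2.1 with 15.8 CPM, BCL2A1 in C2.1 with 368 CPM, BCL2L1 in C1.2 with 22.9 CPM, MCL1 in C4.2 with 732 CPM, BID (XLOC_017957) in C2.2 with 1.08 CPM and PMAIP1 in C4.2 with 0.771 CPM. In methionine-rich pools they were BAD in M6.1 with 48.9 CPM, BBC3 in M6.1 with 96.3 CPM, BCL2A1 in M8.2 with 1.89 CPM, BAK1 in M5.1 with 2.2 CPM and PMAIP1 in M6.2 with 0.168 CPM, the last of these a single read. Of the 15 pools, C4.2 also had the highest summed CPM of trophectoderm markers, 10073, and M6.1 that of inner cell mass and hypoblast markers, 405, and of cumulus, oviduct and uterine epithelium markers, 26.3. The part of these markers was not tested. C4.2 and M8.2 held a single blastocyst each.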

How the results depend on the processing

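Over all loci 110 were called. The quasi-likelihood test called 0, the same test with a replicate block for pool number 0, voom 0, DESeq2 63, the fit on loci with at least 1 count 55, the filter of 10 or more reads per pool 0, all 16 pools 356 and the fit without C2.1 66, and leaving out 1 cow gave from 50 (without cow 8) to 149 (without cow 4). The cause was not tested. Of the members other than BCL2A1, 0 were called under all 20 alternatives, though BCL2 was not in every fit and had no FDR by DESeq2 on cow sums. Of the other apoptosis genes, 1 (BCL2L15) was called with all 16 pools, and leaving out 1 cow gave from 0 to 1 (without cow 4).

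Log2 fold changes turned as follows. DESeq2, which by default replaces outlying counts of single pools, gave 0 for BCL2, 0.25 for BCL2A1 and 1 for BCL2L1, and the replicate block gave 0.17 for BCL2L1. Without C2.1 the value was 0.19 for BCL2A1 and 0.23 for BBC3, and voom gave -2.43 for BCL2A1. Leaving out 1 cow gave from -0.76 to 1.07 for BCL2L1, from -0.026 (without cow 8; -0.006 without cow 2) to 0.241 for MCL1, from -9.00 to 0.001 for BCL2A1 (a description, with no call examined), from -0.88 to 0.054 for BAD and from -5.83 to -0.07 for BBC3. BCL2 could not be fitted without cow 2, and its fitted values depend on the prior count. For BCL2L1, MCL1, BAD, BBC3 and BCL2 none of these changed a call.

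BAX, BAK1, BID and PMAIP1 had too few reads to compare treatments, and the cause was not tested. Requiring 10 reads in every pool left MCL1 and BAD alone among the members. No pairing of pools across treatments is given by the labels, and the block on pool number changed no call of a member.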
